A study of Mus musculus with 6 samples.

Results

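Chromatin accessibility was examined at 47 mouse genes that encode histone deacetylases, the complexes built around them, the acetyltransferases that oppose them and readers of acetylated histones. The genes were taken from a fixed list of names. For each gene, every peak of the 6 deposited lists that overlapped the gene body or the 20 kb on either side was collected, with the mouse build mm10 and the GENCODE M21 annotation. The 47 windows held 46 of the 11800 peaks, and they belonged to 15 of the 47 genes.

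ATAC-seq was done on M-MDSCs (CD11b+ Ly-6C high Ly-6G-), monocytic suppressor cells that dampen T cell responses in tumors. They were sorted from Hepa 1-6 tumors, a mouse hepatoma line grown in the liver of wild-type female C57BL/6 J mice aged 6 to 8 weeks. The mice received vehicle, MS-275 or CXD101, which inhibit HDAC1, HDAC2 and HDAC3, each inhibitor at 5 mg/kg into the peritoneum daily for 10 days, beginning 10 days after tumor inoculation. Each group had 2 ATAC-seq libraries of 100000 cells. In this assay a transposase inserts sequencing adapters into open DNA, so more reads at a site mean a more accessible site.

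Deacetylases remove acetyl groups from histone tails and acetyltransferases add them. HDAC1 and HDAC2 work inside the NuRD, SIN3 and CoREST complexes, and HDAC3 works with the NCoR corepressors, which also hold the subunits Tbl1xr1 and Gps2. HDAC4, HDAC5, HDAC7 and HDAC9 (class IIa) have little catalytic activity of their own and act on genes largely through the transcription factors and corepressors that they bind. In myeloid cells deacetylases are known as regulators of inflammatory gene expression.

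The lists compared the groups with each other. A peak of the MS-275 gained list had more signal in MS-275 than in vehicle, a peak of the MS-275 lost list had more in vehicle, and the CXD101 lists follow the same naming. The other pair compared the inhibitors directly. In this order the lists held 8480 peaks (MS-275 gained), 691 (MS-275 lost), 284 (CXD101 gained), 693 (CXD101 lost), 1650 (MS-275 over CXD101) and 2 (CXD101 over MS-275). The paper reports far more peaks for each inhibitor against vehicle. The counts here hold for the deposited lists only, and the reason for the gap was not tested. Both libraries of a group were merged for peak calling, so no value per library was used, no difference below has a replicate check, and the p and q of a peak cover counting error between pooled groups. The pooled MS-275 and CXD101 groups were each 1.14 times as deep as vehicle, and MS-275 was 1.01 times as deep as CXD101. Because the lists hold changes and not levels, the labelled cell type could not be checked by its level of accessibility. Among the gate's genes, Itgam had 1 peak each in MS-275 gained, MS-275 lost, CXD101 lost and MS-275 over CXD101, Ly6c1 had 2 MS-275 gained peaks and 1 in MS-275 over CXD101, and Ly6c2 had 3 MS-275 gained peaks. The monocyte genes Ccr2 and Csf1r had 0 peaks in every list, and so did Cd79a, Ncr1, Klrb1c, Alb, Apoa1 and Afp, which mark B cells, NK cells and hepatocytes. The neutrophil gene Ly6g had 3 MS-275 gained peaks and 1 in MS-275 over CXD101, and Cxcr2 had 1 MS-275 gained peak. The T cell genes Cd3d, Cd3e and Cd3g had 1 MS-275 gained peak each, and Cd3g also had 1 MS-275 lost and 1 CXD101 lost peak. These counts are per gene. Windows of neighbouring genes can overlap, so the same peak may be counted for several of them.

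The targets of both inhibitors had no peak in the deposited lists. Hdac1 (chromosome 4), Hdac2 (chromosome 10) and Hdac3 (chromosome 18) each had 0 peaks in all 6 lists, and so did Hdac8, the other class I enzyme. A gene without a listed peak may still have been open in all 3 groups, since an unchanged site is not in a differential list. Of the 46 peaks, 36 were gains with MS-275. That list had 36 peaks in the windows of 11 members, against 2 peaks in 2 members for CXD101 gained, 1 peak in 1 member for MS-275 lost, 3 peaks in 3 members for CXD101 lost and 4 peaks in 3 members for MS-275 over CXD101. The list CXD101 over MS-275 had 0.

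**Figure D1:**
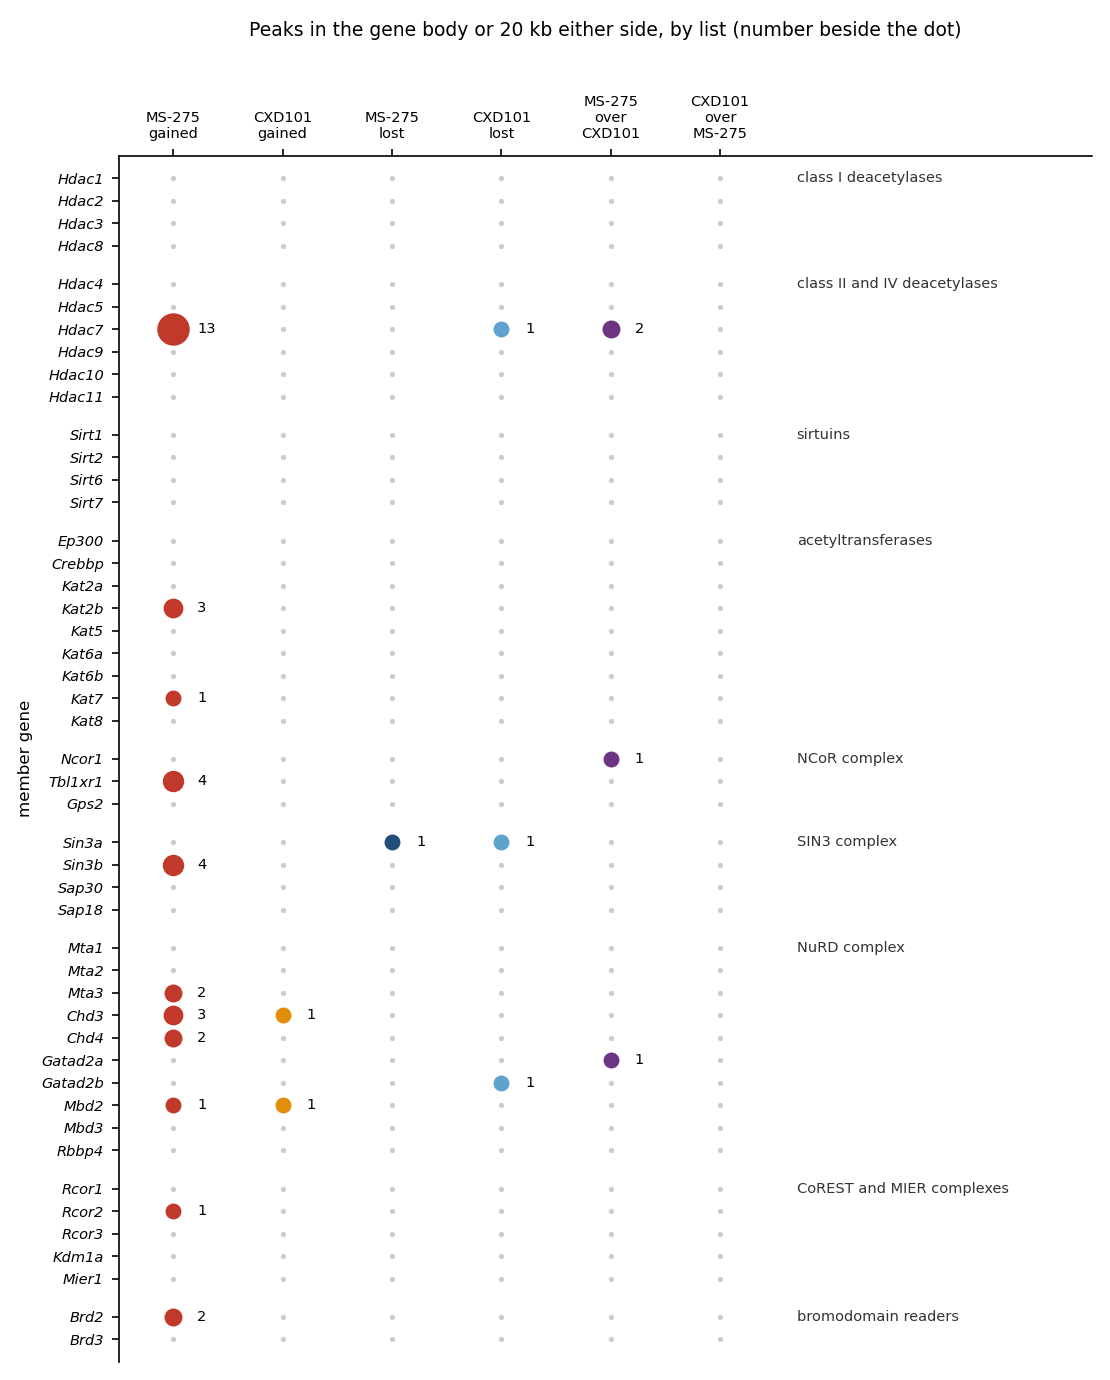
The plot gives the number of peaks (beside each dot, with larger dots for more peaks) in the window of each of the 47 members (rows, by group) for each of the 6 lists (columns), and small grey points stand for 0. Hdac7 stands out with 13 MS-275 gained peaks, while the rows of Hdac1, Hdac2, Hdac3 and all 4 sirtuins are empty.

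These shares were close to those of other genes where the numbers were large enough to compare. Of the 47 members 23.4% had an MS-275 gained peak (95% Wilson interval 13.6 to 37.2%), beside 18.8% of all 21755 protein-coding genes. For MS-275 lost the shares were 2.13% and 2.93%, for MS-275 over CXD101 they were 6.38% and 6.68%, and for CXD101 lost they were 6.38% (2.19 to 17.2%) and 3.65%. For CXD101 gained the 2 members made 4.26% (1.17 to 14.2%) beside 0.970% of all genes, a difference that rests on Chd3 and Mbd2 alone. For CXD101 over MS-275, 0 of 47 members allows a share of up to 6.38%, beside 0.0138% of all genes. Over any list, 31.9% of the members and 23.9% of all protein-coding genes had a peak. The intervals cover counting error only. The windows of the members were longer, with a median of 76.0 kb (42.7 to 910 kb) against 57.4 kb over all genes, so the density per length is the fairer scale.

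Per length, the member windows held 6.75 MS-275 gained peaks per Mb over 5.33 Mb, and the windows of all protein-coding genes held 4.54 per Mb. These counts are of summits, and the 36 member peaks lie in 30 distinct intervals, for which no density was computed. The excess came from the window of a single gene. Without Hdac7, which was left out after its values were seen, the density was 4.39 per Mb. The other lists held 0.375 per Mb against 0.133 (CXD101 gained), 0.188 against 0.408 (MS-275 lost), 0.563 against 0.408 (CXD101 lost) and 0.75 against 0.889 (MS-275 over CXD101), each on 4 or fewer member peaks.

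**Figure D2:**
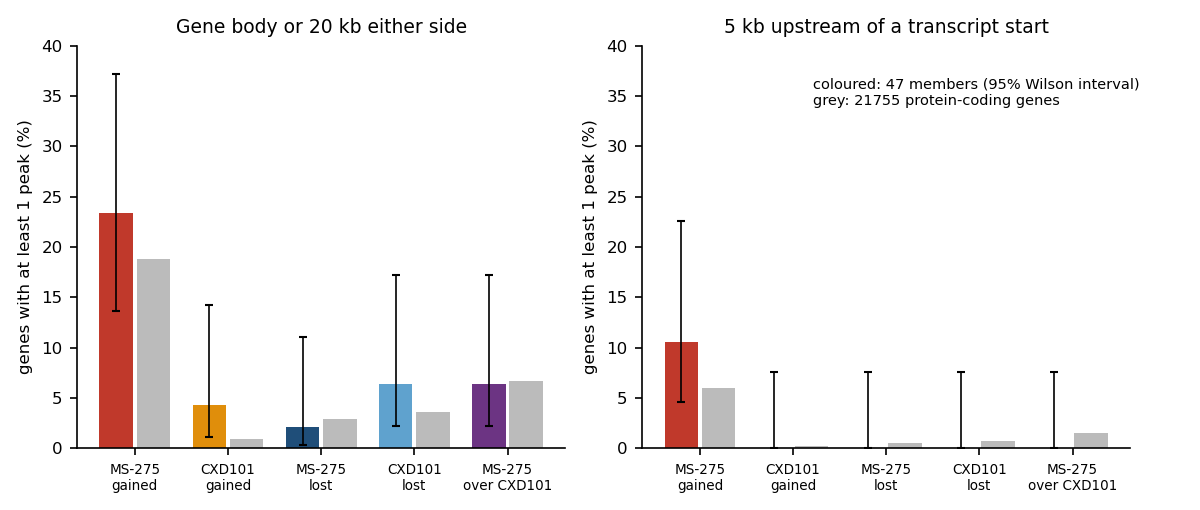
Bars give the percentage of genes with at least 1 peak, for the 47 members (coloured, with 95% Wilson intervals) and for the 21755 protein-coding genes (grey), in the window of the gene body and 20 kb either side (left) and in the 5 kb upstream of a transcript start (right). All 5 lists drawn have grey bars within the interval of the members except CXD101 gained in the left panel, where the bar of all genes, at 0.970%, lies under the interval that starts at 1.17%.

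The size of the change is given below as fold enrichment, the ratio of the pileup of the first group to that of the second after 1 tag is added to both. Tags are reads that cover the summit, scaled to the depth of the shallower group, and the control level is an upper estimate of the second group's tags. The 36 MS-275 gained member peaks had a median fold of 2.81 (1.42 to 4.91) beside 2.88 over the whole list. The median member summit had 56.4 tags in MS-275 against a vehicle level of 17.7, beside 49.8 and 15.8 over the list. Member peaks thus had about the size and depth of the list as a whole.

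Promoters, taken as the 5 kb upstream of any annotated transcript start, had MS-275 gained peaks at 5 members, Hdac7, Tbl1xr1, Mta3, Chd3 and Rcor2, with 8 peaks in all. This was 10.6% of the members (4.63 to 22.6%) beside 5.97% of all protein-coding genes. Members also have more annotated starts, with a median of 7 per gene against 3 over all genes. Counted from the 5′ end of the gene only, 2 members remained, Tbl1xr1 and Mta3, which is 4.26% beside 3.39%. The other 5 lists had 0 members with a promoter peak, which allows a share of up to 6.38% in each, beside 0.244% (CXD101 gained), 0.533% (MS-275 lost), 0.731% (CXD101 lost), 1.55% (MS-275 over CXD101) and 0 of all genes (CXD101 over MS-275).

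The sequences under the promoter gains are shown first, since they fell into a CpG-rich and a CpG-poor kind. They were read from the mouse reference genome (mm10, plus strand), with each CpG dinucleotide in capitals. At Tbl1xr1 an outer site (chr3:22074908-22075109) with 4 CpG lay upstream of an inner site (chr3:22076004-22076288) with 39. The Mta3 site (chr17:83705566-83705788) had 8, the Chd3 site (chr11:69368109-69368408, the 300 bases nearest its second summit) had 13 and the Rcor2 site (chr19:7267937-7268151) had 6. The Mta3 site next to the start and the Hdac7 promoter site overlap untranslated exons and are described without their letters.
Tbl1xr1, outer: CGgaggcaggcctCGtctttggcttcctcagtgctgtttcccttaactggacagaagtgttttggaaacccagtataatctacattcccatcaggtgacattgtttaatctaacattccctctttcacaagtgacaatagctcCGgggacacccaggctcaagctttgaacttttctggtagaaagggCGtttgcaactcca
Tbl1xr1, inner: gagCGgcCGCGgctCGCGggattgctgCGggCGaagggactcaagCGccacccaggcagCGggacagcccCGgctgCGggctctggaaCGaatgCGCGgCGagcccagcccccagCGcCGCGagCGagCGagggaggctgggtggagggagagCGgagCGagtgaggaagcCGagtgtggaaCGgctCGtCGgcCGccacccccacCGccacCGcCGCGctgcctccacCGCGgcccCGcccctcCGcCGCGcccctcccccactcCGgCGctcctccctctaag
Mta3: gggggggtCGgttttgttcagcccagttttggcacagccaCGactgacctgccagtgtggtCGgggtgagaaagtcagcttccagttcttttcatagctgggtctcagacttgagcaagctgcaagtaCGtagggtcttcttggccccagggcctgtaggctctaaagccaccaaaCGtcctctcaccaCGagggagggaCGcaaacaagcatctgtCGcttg
Chd3: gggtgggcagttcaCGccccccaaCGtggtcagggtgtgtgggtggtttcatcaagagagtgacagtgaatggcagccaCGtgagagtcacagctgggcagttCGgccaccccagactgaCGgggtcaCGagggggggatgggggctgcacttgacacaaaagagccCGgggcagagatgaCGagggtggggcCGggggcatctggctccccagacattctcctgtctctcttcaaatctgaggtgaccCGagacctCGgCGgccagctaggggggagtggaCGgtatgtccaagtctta
Rcor2: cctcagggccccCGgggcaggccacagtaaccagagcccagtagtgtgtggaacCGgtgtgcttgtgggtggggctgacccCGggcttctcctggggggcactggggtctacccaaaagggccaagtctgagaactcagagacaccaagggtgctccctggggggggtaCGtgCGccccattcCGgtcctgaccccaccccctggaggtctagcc

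Tbl1xr1, whose protein links the NCoR corepressor to the ubiquitin machinery that exchanges corepressors for coactivators, had the strongest member peak by p-value. The outer promoter site, with its summit 1645 bp upstream of the gene (chromosome 3, 22076652 to 22216594, plus strand), had 106 tags in MS-275 against a vehicle level of 27.6, a fold of 3.73 with a −log10 p of 29.2. The inner, CpG-rich site, 519 bp upstream, was far more open in vehicle and gained less, with 122 tags against 85.0, a fold of 1.42 and a −log10 p of 4.03. It was the smallest fold among the 36 peaks. Both summits also lie in the noncoding gene Gm43672. A further pair of gained sites lay in intron 2 of Tbl1xr1, with 63.0 tags against 21 (fold 2.91, −log10 p 12.9) and 53.3 against 11.2 (fold 4.45, −log10 p 19.5).

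Mta3, a NuRD subunit, showed the same arrangement in its promoter (gene at chromosome 17, 83706163 to 83821516, plus strand). The site shown above, 458 bp upstream, had 60.3 tags in MS-275 against 15.8 in vehicle, a fold of 3.65 with a −log10 p of 17.3. The site next to the start, 133 bp upstream, had 45.5 tags against 21, a fold of 2.11 with a −log10 p of 5.79, and it held 27 CpG dinucleotides in 243 bp. Thus in both promoters the CpG-rich site nearest the start had the smaller fold. A small fold passes the limit of the lists only where the vehicle level is high. The order of the folds cannot be told apart from that limit here.

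Chd3, the ATPase of NuRD, was gained in its first intron and upstream (gene at chromosome 11, 69343273 to 69369406, minus strand). The 512 bp interval in intron 1 had summits 1131 and 1411 bp inside the gene, with 43.7 tags in MS-275 against 14 in vehicle (fold 2.98, −log10 p 9.92) and 35.8 against 11.0 (fold 3.07, −log10 p 8.71). It counts as a promoter through the start of another transcript inside the gene. A weaker gain lay 10343 bp upstream, with 28.9 tags against 11.0 (fold 2.49, −log10 p 5.33). CXD101 also gained there, with its summit 188 bp away, 25.5 tags against a vehicle level of 9 (fold 2.65, −log10 p 5.53). At matched dose and time the tags of MS-275 were 1.13 times those of CXD101 at these summits, with an exact 95% interval of 0.666 to 1.93 for counting error, and the direct lists held no peak there.

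Rcor2, a CoREST scaffold that joins the demethylase Kdm1a to HDAC1 and HDAC2, had a single gained peak 738 bp inside the gene and 216 bp from a transcript start (gene at chromosome 19, 7267325 to 7275225, plus strand). It had 44.6 tags in MS-275 against 18 in vehicle, a fold of 2.40 with a −log10 p of 7.20.

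Hdac7, a class IIa deacetylase, had the most peaks of any member (gene at chromosome 15, 97792664 to 97844502, minus strand). Its window held 13 MS-275 gained summits, and 21 of the 21755 protein-coding genes (0.0965%) had as many or more. Inside the gene body 9 summits were gained, a number that 43 genes (0.198%) reached. These 9 summits, in 7 intervals, lay within 10.2 kb at the 5′ part of the gene. Of them, 8 were in intron 1 of the principal transcript and 1 in its exon 1, which starts 12.7 kb inside the annotated gene. The later introns and exons had 0.

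Accessibility at the 9 sites ranged from 37.6 to 108 tags in MS-275 and from 9.40 to 55.0 in vehicle, with folds from 1.94 to 3.80 (median 2.95). The largest fold was at a summit 541 bp from a transcript start in intron 1, with 38.5 tags against 9.40 (−log10 p 12.3). The exon 1 site, 46 bp from a start and holding 27 CpG dinucleotides in 273 bp, had 37.6 tags against 16.2, a fold of 2.24 with a −log10 p of 5.56. Deeper in the intron, 6 summits were packed between 21395 and 23240 bp from the 5′ end of the gene. Taken from the far end of this group towards the start, the first summit had 85.7 tags in MS-275 against 35.8 in vehicle (fold 2.36, −log10 p 12.1), the next 108 against 55.0 (fold 1.94, −log10 p 9.75) and the third 97.1 against 32.2 (fold 2.95, −log10 p 20). The fourth had 68.2 against 17.7 (fold 3.70, −log10 p 19.7), where the tags had 2 solutions of which 1 is given. The last pair, in a single interval, had 63.0 against 18.2 (fold 3.32, −log10 p 15.6) and 65.6 against 28 (fold 2.30, −log10 p 9.15). A summit between this group and the start had 59.5 against 19 (fold 3.02, −log10 p 13.3). The widest-open site of the group in vehicle thus had the smallest fold of the 9, and so small a fold is listed only at a high vehicle level.

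The other 4 gained summits lay 4.49 to 12.2 kb downstream, inside the neighbouring gene Slc48a1, which encodes a heme transporter. The strongest had 58.6 tags in MS-275 against 12.9 in vehicle (fold 4.30, −log10 p 20.2), and the other summit of its interval had 48.1 against 12.8 (fold 3.57, −log10 p 14). The pair nearer to Hdac7 had 79.6 against 30.2 (fold 2.58, −log10 p 13.4) and 57.7 against 19.2 (fold 2.91, −log10 p 12.1). The interval with the strongest summit lies in a promoter of Slc48a1, so it cannot be assigned to Hdac7 by position.

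MS-275 exceeded CXD101 directly at 2 of the Hdac7 sites, and these are the only 2 sites of any member where MS-275 exceeded both vehicle and CXD101 with summits within 250 bp. Scaled to vehicle depth, the intron 1 site had 97.1 tags in MS-275, 46.8 in CXD101 and 32.2 in vehicle (both upper estimates), and the direct fold was 2.09 with a −log10 p of 12.2. The Slc48a1 site had 58.6 tags in MS-275, 19.3 in CXD101 and 12.9 in vehicle, and the direct fold was 2.90 with a −log10 p of 13.5, the strongest direct member peak. CXD101 against vehicle was not listed at either site. Their sequences, chosen after their values were seen because of this difference, are given with CpG dinucleotides in capitals for intron 1 (chr15:97821875-97822172, 3 CpG) and for the 300 bases around the summit in Slc48a1 (chr15:97780694-97780993, 12 CpG).
Hdac7, intron 1: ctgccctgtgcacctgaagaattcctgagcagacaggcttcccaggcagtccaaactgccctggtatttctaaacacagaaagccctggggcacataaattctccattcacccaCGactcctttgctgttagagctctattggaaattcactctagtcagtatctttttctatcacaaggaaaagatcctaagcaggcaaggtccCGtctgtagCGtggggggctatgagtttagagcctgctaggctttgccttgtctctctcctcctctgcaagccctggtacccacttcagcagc
Hdac7, downstream site in Slc48a1: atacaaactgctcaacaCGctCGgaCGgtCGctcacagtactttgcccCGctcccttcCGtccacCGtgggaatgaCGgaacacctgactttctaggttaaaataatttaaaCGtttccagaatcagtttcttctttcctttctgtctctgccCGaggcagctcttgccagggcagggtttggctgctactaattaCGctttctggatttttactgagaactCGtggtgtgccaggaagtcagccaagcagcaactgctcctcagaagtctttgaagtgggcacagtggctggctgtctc

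A peak with the opposite sign lay on the other side of the gene. It was a CXD101 lost peak 13970 bp upstream of Hdac7, inside Vdr, the vitamin D receptor gene, with 23.0 tags in vehicle against 8.44 in CXD101, a fold of 2.54 with a −log10 p of 5.05.

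**Figure D3:**
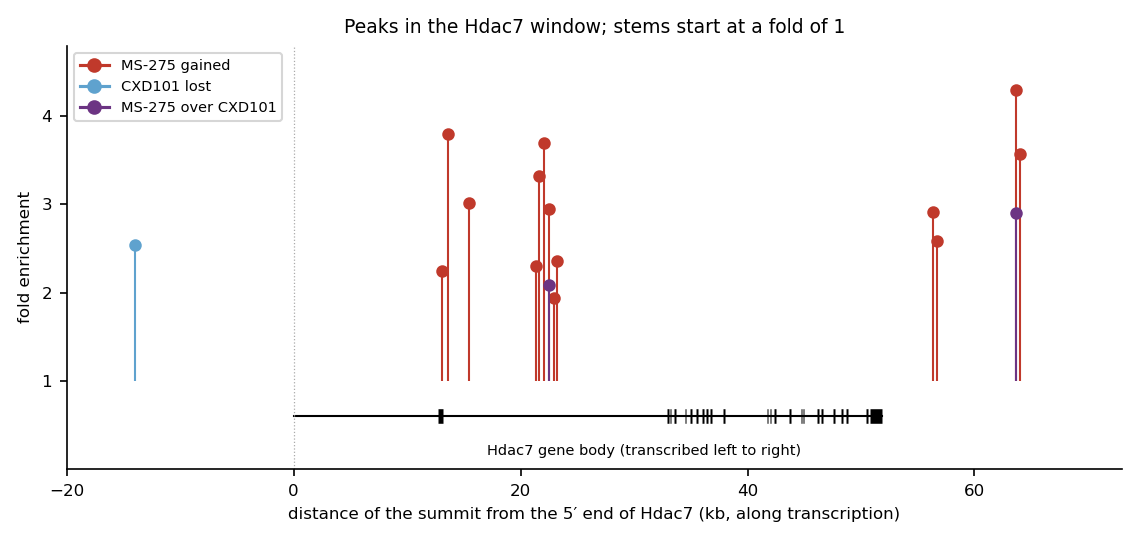
Each stem is a summit in the Hdac7 window, placed by its distance from the annotated 5′ end of the gene (kb, along transcription) and drawn from a fold of 1 up to its fold enrichment, with colour giving the list. Black blocks on the line are exons of the principal transcript. The MS-275 gained stems (folds 1.94 to 4.30) form a group in the first intron and another beyond the 3′ end, and each holds 1 MS-275 over CXD101 stem.

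None of the other 9 deacetylases of the zinc-dependent classes (Hdac1, Hdac2, Hdac3, Hdac4, Hdac5, Hdac8, Hdac9, Hdac10 and Hdac11) had a peak in any list, although the Hdac9 window alone spans 910 kb. The 4 NAD-dependent sirtuins listed (Sirt1, Sirt2, Sirt6 and Sirt7) had 0 peaks as well.

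Of the 10 NuRD genes, the largest group, 6 had a peak in any list, beside 23.9% of all protein-coding genes, and for Chd4 and Mbd2 another gene was nearer to the peaks. With MS-275, 8 peaks were gained in 4 of the 10, Mta3, Chd3, Chd4 and Mbd2, beside 18.8% of all protein-coding genes. Both CXD101 gained member peaks were at NuRD genes, Chd3 and Mbd2, beside 0.970% of all genes with such a peak. The groups are small, and no difference between them was tested. The GATA zinc finger subunits of NuRD had 1 peak each, in other lists. Gatad2a was higher in MS-275 than in CXD101 at a site in intron 3, with 95.4 tags against 49.0 (fold 1.93, −log10 p 8.72). Gatad2b had the strongest lost peak of the members, a CXD101 lost site in intron 1 with 24.0 tags in vehicle against 5.84 in CXD101, a fold of 3.65 with a −log10 p of 8.46. Its sequence (chr3:90323363-90323570) is printed as the strongest loss and holds 3 CpG dinucleotides, in capitals.
Gatad2b: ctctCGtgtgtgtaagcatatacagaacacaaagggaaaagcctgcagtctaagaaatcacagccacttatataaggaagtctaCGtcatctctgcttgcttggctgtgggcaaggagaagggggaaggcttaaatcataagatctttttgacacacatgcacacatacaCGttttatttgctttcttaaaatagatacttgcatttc
The remaining NuRD members, Mta1, Mta2, Mbd3 and Rbbp4, had 0 peaks.

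Mbd2, which binds methylated CpG and recruits NuRD, had the largest fold of any member peak. The site lay 19.3 kb upstream of the gene on chromosome 18, and Poli, a DNA polymerase gene, was nearer at 18.3 kb. MS-275 had 63.8 tags against 12.2 in vehicle (fold 4.91, −log10 p 24.8) and CXD101 had 56.3 against 13.0 (fold 4.09, −log10 p 18.6), with summits 10 bp apart. The tags of MS-275 were 1.13 times those of CXD101, with an exact 95% interval of 0.80 to 1.61, and the direct lists held no peak there. Chd4, the other NuRD ATPase, had 2 gained peaks with folds of 3.11 and 2.38, but both lay over 18 kb downstream in the promoter of Iffo1.

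In the SIN3 complex the paralogous scaffolds Sin3a and Sin3b had peaks of opposite sign, none of them in the gene itself. The Sin3a peak was the only member site lost with both inhibitors. It lay 2.62 kb downstream, in the promoter of Man2c1, a mannosidase gene, with 109 tags in vehicle against 66.5 in MS-275 (fold 1.63, −log10 p 6.20) and 108 against 66.0 in CXD101 (fold 1.63, −log10 p 6.12), and the summits were 3 bp apart. Both comparisons share the vehicle libraries. The 4 gained summits near Sin3b had folds from 2.19 to 2.86 and lay 3175 to 4386 bp downstream at F2rl3, a thrombin receptor gene. Sap30 and Sap18 had 0 peaks.

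Of the NCoR genes, Ncor1 itself had a single peak, higher in MS-275 than in CXD101 with 69.6 tags against 32.0 (fold 2.14, −log10 p 8.36), 11.9 kb upstream inside Pigl. Gps2 had 0. In the CoREST and MIER group Rcor2 was the only gene of 5 with a peak, and Rcor1, Rcor3, Kdm1a and Mier1 had 0. Brd2, a bromodomain reader of acetylated histones, had 2 gained peaks with folds of 2.87 and 2.47, both over 18 kb downstream in the region of H2-Oa, and Brd3 had 0.

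Among the 9 acetyltransferases, Kat2b (PCAF) and Kat7 (HBO1) had MS-275 gained peaks and no other. The 3 Kat2b peaks were all in intron 1, 729 to 3262 bp from the 5′ end of the gene. The first had 51.6 tags in MS-275 against 29.8 in vehicle (fold 1.71, −log10 p 3.84), the second 99.7 against 35.6 (fold 2.75, −log10 p 18.1) and the third 65.6 against 35.4 (fold 1.83, −log10 p 5.56). The first summit had 23 CpG dinucleotides within 100 bp and the second had 7. The Kat7 peak (fold 2.74) lay 8.53 kb downstream in Tac4. Ep300 and Crebbp, the general coactivators, had 0 peaks, as did Kat2a, Kat5, Kat6a, Kat6b and Kat8.

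**Figure D4:**
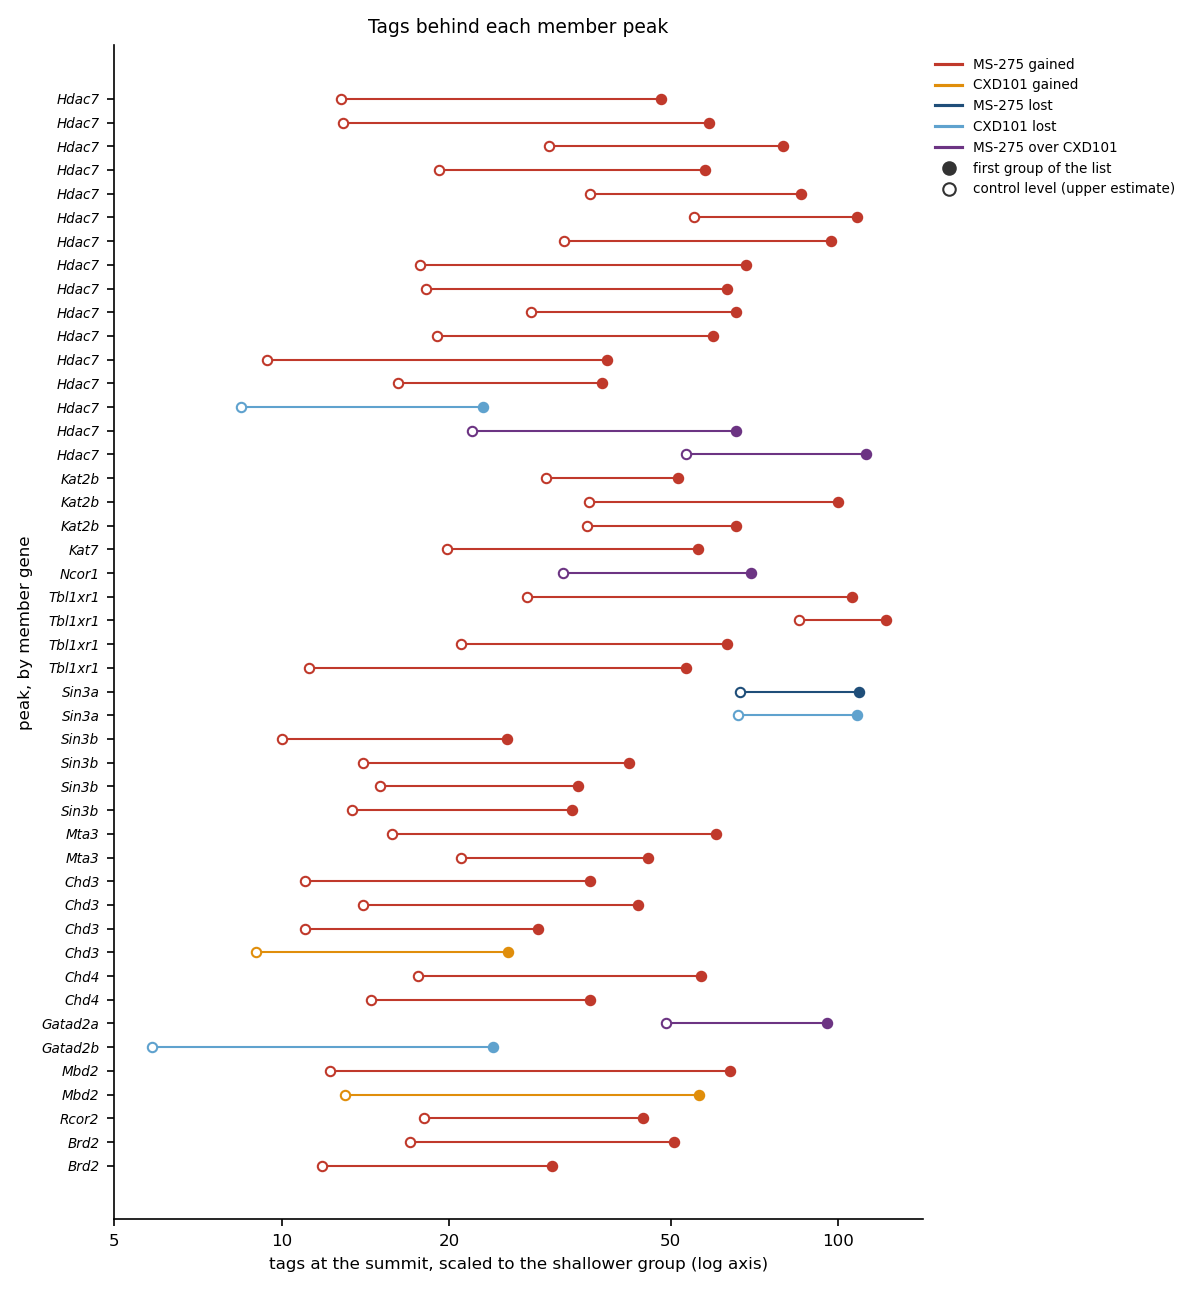
Each line is 1 of the 46 member peaks, from the control level (open circle) to the tags of the first group of its list (filled circle), in tags scaled to the shallower group on a log axis, with colour giving the list. Control levels run from 5.84 tags at Gatad2b to 85.0 at Tbl1xr1, where the line is also the shortest.

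Position within the genes was uneven. Of the 17 MS-275 gained summits inside a member, 13 (76.5%) were in the first intron of the principal transcript, beside 34.8% of the 4668 gained summits inside protein-coding genes. First introns make up 14.3% of the length of the members and 22.1% of that of all genes. The member share covers every member, most of them without a gained summit inside the gene. In Hdac7 the first intron is longer, with 19.7 kb of a 51.8 kb gene. Of the 13, 8 belonged to Hdac7, and without it 5 of 8 summits (62.5%) were in the first intron. These summits come from 5 genes (Hdac7, Kat2b, Tbl1xr1, Chd3 and Rcor2), so they are not independent of each other. The other 19 gained summits lay in the flanks, and 14 of the 36 had another protein-coding gene nearer than the member. Over the 6 lists this was so for 20 of 46 peaks.

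Base composition varied among the gained sites. Within 100 bp of the summit the 36 MS-275 gained member peaks had a median of 55.7% G and C, beside 49.8% over the list, and 55.7% also without Hdac7. The 8 promoter peaks had a median of 65.4% and the 28 others 55.0%. The 4 summits with at least 15 CpG dinucleotides, at Tbl1xr1, Hdac7, Mta3 and Kat2b, had folds from 1.42 to 2.24 (median 1.91), and the nearest other gained summit of the same gene had a larger fold. The 10 summits with 5 to 14 CpG had a median fold of 3.03 and the 22 with under 5 had 2.87, so the members showed no steady order. Over the whole list the medians were 2.37 for the 671 summits with at least 15, 2.72 for the 1584 with 5 to 14 and 2.98 for the 6225 with under 5, with median vehicle levels of 21, 18 and 14.9 tags. Among the 4 CpG-rich member summits, those of Tbl1xr1 and Kat2b had a p above the 0.00001 that the methods name, and the other 2 had folds of 2.11 and 2.24. The limits of 15 and 5 were chosen after the values were seen. Small folds are listed only at higher vehicle levels, so these medians also depend on the limit of the lists.

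**Figure D5:**
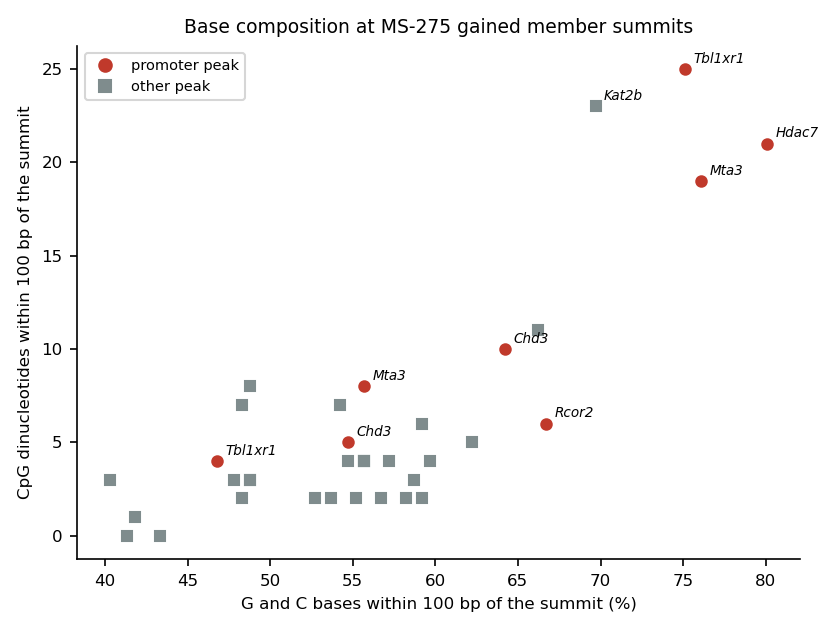
Each point is an MS-275 gained member summit, by the percentage of G and C bases (x axis) and the number of CpG dinucleotides (y axis) within 100 bp of it. Circles are promoter peaks and squares are others. The 4 summits at 19 or more CpG, at Tbl1xr1, Kat2b, Hdac7 and Mta3, lie apart from the rest, which have 11 or fewer.

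Short words bound by common transcription factors were searched within 100 bp of the MS-275 gained summits on both strands. CCAAT was present at 10 of 36 member summits (27.8%) beside 20.6% of the list, the GC box GGGCGG at 6 (16.7%) beside 10.6%, and the E-box CACGTG at 3 (8.33%) beside 2.96%. The C/EBP words TTGCGCAA and TTGCNCAA, of which the second contains the first, were at 1 (2.78%) beside 2.54%. The AP-1 word TGANTCA was at 0 of 36 beside 4.55%, as were the CRE word TGACGTCA (0.165%), the ETS word GAGGAAGT (1.83%), the IRF motif (2.71%) and the NRF1 motif (0.0118%), and 0 of 36 allows a share of up to 8.33%. With 36 summits, these shares do not separate the members from the list.

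The inhibitors were compared through the overlap of their lists, by at least 1 base. Of the 36 MS-275 gained member peaks, 3 (8.33%, 2.87 to 21.8%) also overlapped a peak of MS-275 over CXD101, beside 17.4% of the whole list, and all 3 were in the Hdac7 window, where 1 interval held 2 of the summits. The share gained with CXD101 as well was 2 of 36 (5.56%, 1.54 to 18.1%) beside 4.22%. From the other side, both CXD101 gained member peaks overlapped an MS-275 gained peak, as did 94.4% of that list. Of the 4 MS-275 over CXD101 member peaks, 2 overlapped an MS-275 gained peak, beside 72.2% of that list. The others, at Ncor1 and Gatad2a, were in no vehicle list. Of the 3 CXD101 lost peaks, 1 was also lost with MS-275, beside 49.1%. The comparisons with vehicle share its libraries, so these overlaps are descriptions.

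The edge of the window decided a few cases. The members just inside had peaks 19.5 kb (Brd2), 19.3 kb (Mbd2) and 19.1 kb (Chd4) from the gene. The nearest peaks just outside were 25.6 kb from Sap18 (MS-275 gained, fold 2.45, nearest gene Lats2), 27.8 kb from Rcor3 and 28.7 kb from Sirt1 (both MS-275 over CXD101).

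A further 58 genes of the same pathway and gene families, not among the 47, were counted in the same way. MS-275 gained peaks were found at 10 of them (17.2%, beside 18.8% of all genes), with 4 (6.90%) at promoters, Tbl1x, Chd5, Zfp217 and Zmynd8. CXD101 gained peaks were found at 0, CXD101 lost at 4 (Brms1, Hmg20b, Zmynd8 and Trrap) and MS-275 over CXD101 at 3 (Zfp217, Brpf3 and Epc1). Tbl1x, the X-linked paralog of Tbl1xr1, had 3 gained promoter summits with folds from 1.78 to 1.97 and 2 in intron 1 with folds of 4.62 and 3.86. Zfp217, a CoREST-associated zinc finger gene, had 13 gained summits, as many as Hdac7.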

How the data were processed

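M-MDSCs were profiled by ATAC-seq in 6 libraries, 2 each for vehicle, MS-275 and CXD101, grouped by their treatment labels. For mapping to mm10 the authors used Bowtie2. They pooled the libraries of a group and called differential peaks with MACS2 (2.2.7.1, no model, shift of 0). Whether reads were moved to the transposase cut site beforehand is not given in the sources used here, and this would displace a summit by a few bases. The deposited lists give a fold enrichment (a linear ratio of pileups with a pseudocount of 1), a −log10 p-value, a −log10 q-value and a summit offset, which is a count of bases, for each peak. The lowest deposited −log10 q-value was 1.30, that is a q of 0.05, although the methods state a p under 0.00001. Of the 36 MS-275 gained member peaks 3 had a p above it (at Kat2b, Tbl1xr1 and Sin3b), as did 9.35% of that list, and 0 member peaks of the other lists did. Depth per library was not given in the files used here.

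Peaks were assigned to a gene when they overlapped its body or 20 kb either side by at least 1 bp (GENCODE M21), and to a promoter when they overlapped the 5 kb upstream of a transcript start. Each summit was 1 peak. Tags and control levels were solved from the fold and the Poisson p, for all 11800 peaks (25 with 2 solutions). The method recovered 100% of 300 simulated peaks at each of 3 depths. Those peaks were made with the same formulas, so this checks the inversion only. Their control levels did not reach the highest levels of the member peaks. Python (3.11.15), numpy (2.4.6), scipy (1.17.1), pysam (0.24.0) and matplotlib (3.10.9) were used. The members, gene groups, other pathway genes and words were chosen with earlier results of these data known. Full values are given for members with a promoter peak or with peaks in 2 or more lists, and for Hdac1, Hdac2 and Hdac3, and for the peak of each list with the highest −log10 p. Members in lists with few peaks, Kat2b and the members near the window edge were named after their values were seen. The alternatives tried were stricter q-value and fold limits, other windows and promoters, assignment to the nearest gene, counting intervals, other overlaps and a narrower motif window. Some results on other pathway genes and marker genes are not reported here.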

Additional observations from a re-analysis of the deposited data

Results flagged for a closer look

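MS-275 and CXD101, given at the same dose and for the same time, differed directly at 4 member sites by the peak caller's Poisson test of the pooled groups, which has no replicate check. The folds of MS-275 over CXD101 were 2.90 at the site downstream of Hdac7 in Slc48a1 and 2.09 in intron 1 of Hdac7, and both sites were gained over vehicle with MS-275. The folds were 2.14 upstream of Ncor1 in Pigl and 1.93 in intron 3 of Gatad2a, and neither site was in a list against vehicle. These 3 members are 6.38% of the 47, beside 6.68% of all protein-coding genes.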

How the results depend on the processing

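Of 150 values recomputed under another setting, 114 stayed near the reported value and 36 moved. Near means within a fixed ratio of the reported value or, for overlap and motif shares, inside its interval. Many of those that stayed were counts of 0, in lists without member peaks or without promoter peaks. A stricter limit cannot change a count of 0, so the tally does not measure how robust the results are. Assignment of peaks to genes mattered most. With the gene body alone, MS-275 gained had 18 peaks in 6 members (12.8%, beside 10.1% of all protein-coding genes). CXD101 gained had 0 in 0, MS-275 lost 0 in 0, CXD101 lost 1 in 1 and MS-275 over CXD101 2 peaks. With 5 kb either side, MS-275 gained had 7 members (14.9%, beside 12.8% of all protein-coding genes). CXD101 gained had 0 peaks in 0 members and MS-275 over CXD101 2 peaks. The share of all genes thus also fell with the narrower windows. For the other lists under these windows, and for the nearest-gene, q-value and fold settings, the share of all genes was not computed. Keeping only peaks whose nearest gene was the member left 22 peaks in 6 members for MS-275 gained, 1 in 1 for CXD101 gained, 0 in 0 for MS-275 lost, 1 in 1 for CXD101 lost and 2 peaks for MS-275 over CXD101. At a q under 0.001, CXD101 gained and CXD101 lost each had 1 peak in 1 member and MS-275 lost had 0 in 0, and a fold of at least 2 also left 0 in 0 for MS-275 lost. Promoters taken from the 5′ end of the gene held MS-275 gained peaks at 2 members (4.26%, beside 3.39% of all protein-coding genes). Without Hdac7, an alternative chosen after seeing the data, MS-275 gained had 23 peaks at 4.39 per Mb and MS-275 over CXD101 had 2 peaks. With a p under 0.00001, also chosen later, MS-275 gained had 33 peaks in 11 members and the other lists had the counts reported. Within 50 bp of the summit, CCAAT was at 13.9% of MS-275 gained member summits beside 11.2% of the list, and the E-box at 2.78% beside 1.33%. A narrower window lowers the share in both.

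No paired analysis was possible because replicates had been merged into 1 list per comparison, and so no replicate was left out in turn. A median over promoter peaks alone was not computed for the lists with 0 promoter peaks. A control level is an upper estimate, the p and q of a peak cover counting error of the merged libraries, and a peak beside a gene does not show which gene it serves.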
